A study of Mus musculus with 18 samples.

Results

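Of 32763 coding m6A regions merged from 5 stages of fat cell formation, 1468 were held by the peak lists of both day 5 and day 10 and by none of the lists of days -2, 0 and 2. They make up 4.48% of the coding regions. N6-methyladenosine (m6A) is a methyl mark on adenosines inside messenger RNA, and an m6A peak is a stretch where RNA bound by an m6A antibody (IP) was read more often than RNA before binding (input). Peaks that the authors placed in the coding sequence (CDS) were merged across the stage lists where they shared at least 1 base, and the regions were chosen by the days on which the lists placed a coding peak there. Since the members were selected on these peak calls, the stage counts below are a description with no test. The regions fell on 1042 of the 9361 genes with a coding peak at any stage (11.1%). Of these genes, 164 had no coding peak on days -2, 0 and 2 and are called new here (1.75% of the 9361, with 200 regions), while 878 had a coding peak elsewhere on at least 1 of those days (1268 regions).

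The cells were 3T3-L1, a mouse embryo fibroblast line of pre-adipocytes that fills with lipid when induced to become fat cells. The 18 samples comprised paired IP and input libraries from cells on days -2, 0, 2, 5 and 10, and from 2 replicates each of cells with a control small interfering RNA (siCtrl) or one against Fto (siFTO), which encodes an m6A demethylase. The labels give no day of differentiation for the siRNA cells and do not say whether replicates came from separate cultures. Each IP and input pair gave 1 peak list, so every stage has 1 list.

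The mark is written on nascent transcripts by a methyltransferase complex built around Mettl3 and Mettl14, removed by the demethylases Fto and Alkbh5, and bound by reader proteins such as the Ythdf family. It lies mostly near stop codons, in 3' untranslated regions and in long exons, in a consensus whose core reads GGAC. In 3T3-L1 cells Fto is known to affect adipogenesis through m6A and messenger RNA splicing. A peak needs both methylation and enough RNA, so a new transcript and new methylation of an old one cannot be told apart from peak lists.

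Sequence could be shown for 2 members, because they lie whole inside a RefSeq window around the start of another gene (build GRCm38.p6) and over 500 bases from the start of their own. They are given as an example of a new gene and of a gene with earlier coding peaks, on the gene's strand, with each GGAC in capitals. The Acot3 region is chr12:84053801-84053875 (+ strand, 75 bases) and the Fam13a region is chr6:58965051-58965225 (- strand, 175 bases).
Acot3: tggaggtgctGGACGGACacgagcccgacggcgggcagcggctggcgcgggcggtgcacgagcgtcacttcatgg
Fam13a: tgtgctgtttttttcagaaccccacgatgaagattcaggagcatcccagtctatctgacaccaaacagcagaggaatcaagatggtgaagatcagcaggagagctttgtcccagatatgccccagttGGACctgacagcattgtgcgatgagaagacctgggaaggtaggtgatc
The Acot3 stretch holds GGAC at 2 places in a row and the Fam13a stretch at 1. Of the 5 members inside such windows, 2 held GGAC on the gene's strand (40.0%, Clopper-Pearson 95% interval 5.27% to 85.3%), and 0 held GGACT. Of all 194 stage coding regions inside such windows, 108 held GGAC (55.7%) and 30 held GGACT (15.5%). GGACT contains GGAC, so the counts overlap, and 5 members are too few to set the shares apart.

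Among regions held by exactly 2 stage lists, those of days 5 and 10 were the most numerous. The next pairs were days 2 and 10 with 524 regions, days 2 and 5 with 481, and days -2 and 10 with 429. The other 6 pairs held from 84 regions (days -2 and 0) to 342 (days -2 and 5). Just outside the rule, 1606 regions had a coding peak on day 5 alone and 1562 on day 10 alone, and 1259 were on days 2, 5 and 10. A further 764 were on days 0, 5 and 10, and 494 were on days -2, 5 and 10. The late lists were the longest, at 27744 (day 5) and 28137 (day 10) coding peaks, compared with 16186, 22674 and 24362 on days -2, 0 and 2. When every stage list was shortened to the length of the day -2 list by keeping its highest folds, 579 regions met the rule (2.24% of 25812) and 27.6% of the 1468 regions were overlapped by these. The part of list length in the number of regions was not tested further.

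**Figure D1:**
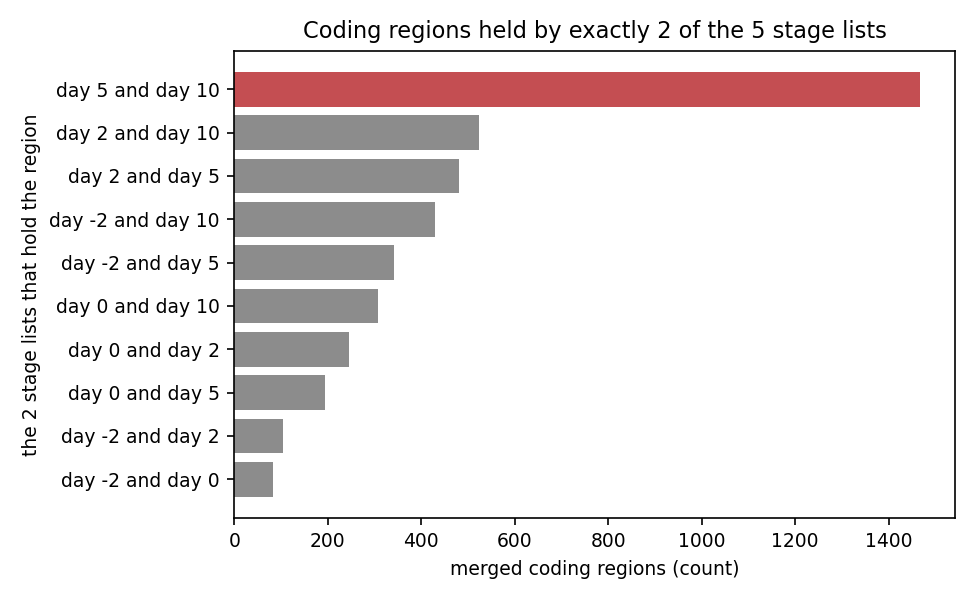
Number of merged coding regions (horizontal axis, count) held by exactly 2 of the 5 stage lists, with 1 bar for each pair of days. The pair of days 5 and 10 holds 1468 regions, and the next pair, days 2 and 10, holds 524.

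The late lists held peaks of most adipocyte markers and of most preadipocyte fibroblast markers. Of 10 adipocyte markers, 4, 3 and 8 had a peak of any transcript part on days -2, 0 and 2, and 9 had one on each late day. The marker without a peak in the stage lists was Slc2a4, the insulin-responsive glucose transporter. Of 6 markers of preadipocyte fibroblasts, 6 had a peak on each earlier day and 5 on each late day, when fibronectin (Fn1) had none. None of 10 markers of macrophages, endothelium and skeletal muscle had a peak in a stage list. The muscle markers were Myod1, Myog and Ckm, and Myh11 of smooth muscle, described below, was not among the 10.

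Member peaks were mostly weak for their lists. The fold printed here is the authors' own enrichment of the IP over the input, used to rank peaks within a list, and its percentile is the share of that list's peaks below it. The median member peak stood at percentile 28.3 on day 5 and 25.7 on day 10, against 46.9 and 46.8 for the other coding peaks of the same lists. New genes ranked higher. Their member peaks had a median percentile of 53.5 on day 5 and 39.7 on day 10, while those on genes with earlier coding peaks had 26.3 and 23.5. The neighbouring classes also had medians below those of the other coding peaks. The regions of days 2, 5 and 10 had medians of 32.0 and 27.9, the regions of days -2, 5 and 10 had 20.3 and 20.5, and the regions of days 0, 5 and 10 had 36.6 and 36.2. Regions of day 5 alone had 27.7 and those of day 10 alone 18.4. The member regions had a median length of 125 bases (75 to 425), which was also the median of all coding regions.

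**Figure D2:**
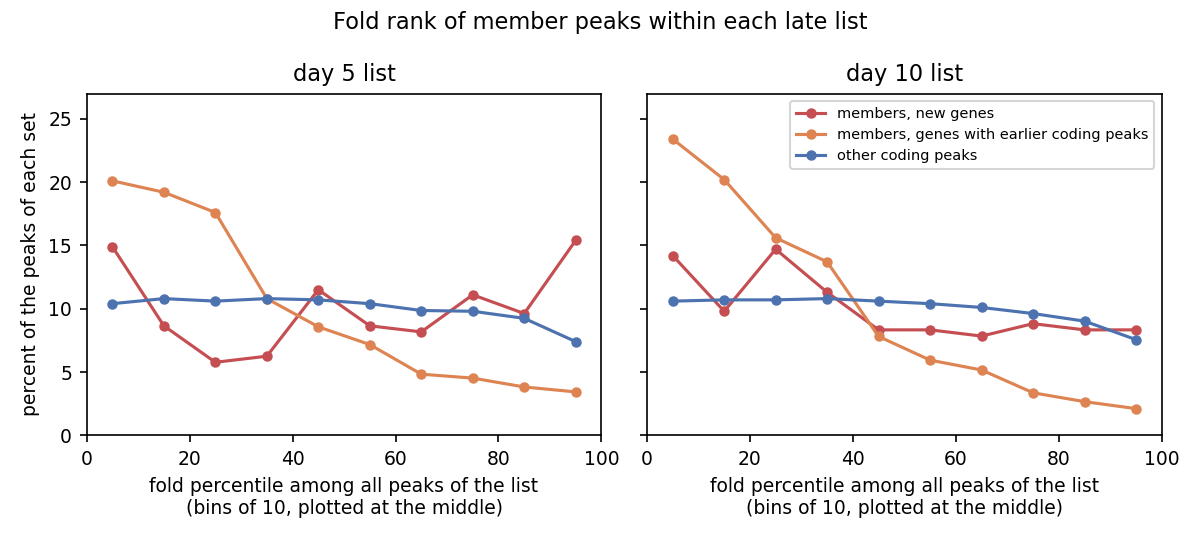
Share of peaks (vertical axis, percent of each set) by fold percentile within the day 5 list (left) and the day 10 list (right), in bins of 10 percentile units. Members on genes with earlier coding peaks crowd the low percentiles in both lists, and members on new genes spread over the whole scale.

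On genes with earlier coding peaks, the late regions lay at varied distances from the earlier ones. The rule leaves out regions that an earlier coding peak overlaps, so some gap follows from it. Distances for other classes of regions are not given here. The median distance to the nearest coding peak of the same gene on days -2, 0 or 2 was 1100 bases along the genome, introns included, with quartiles at 225 and 4081 bases. Of the 1268 regions, 206 lay within 100 bases of such a peak (16.2%), 451 within 500 bases (35.6%) and 609 within 1000 bases (48.0%). Adjoining an earlier peak with no base between were 10 regions (0.789%). When peaks up to 100 bases apart were merged, 1205 regions met the rule, and these overlapped 83.9% of the members. An earlier peak of another transcript part overlapped 101 members (6.88%), in an intron for 42, a 3' UTR for 37 and a 5' UTR for 24. For these members an earlier list thus held a peak at the same place under another part.

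The 878 genes with earlier coding peaks carried more coding peaks on the late days. Over the stages from day -2 to day 10 they had 2145, 3717, 3743, 6138 and 5909 coding peaks together. Per gene this was a mean of 2.44, 4.23, 4.26, 6.99 and 6.73. Over all 9361 genes the means were 1.73, 2.42, 2.60, 2.96 and 3.01. Part of the late figures follows from the rule, which gives each of these genes a coding peak on both late days. Most member genes held a single member region (784), 163 held 2, 55 held 3 and 40 held 4 or more.

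Fasn, which encodes fatty acid synthase, the enzyme that builds palmitate, held the most member regions, with 9. Its coding peaks numbered 3, 4 and 5 on days -2, 0 and 2, then 18 on day 5 and 16 on day 10. In the siRNA lists it had 7 and 6 in siCtrl and 7 and 8 in siFTO, so these lists fell between the early and the late days. The 9 regions ran from chr11:120807801-120807925 to chr11:120822801-120822875 on the - strand (mm10), inside the gene at 120805958 to 120825166. Their folds were low, from 1.59 to 3.38 on day 5 and from 1.85 to 3.99 on day 10, below the median of either list (5.86 and 6.30). With lists of equal length, 0 of the 9 regions were kept.

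Srebf1, the transcription factor that drives fatty acid synthesis genes including Fasn, held 6 member regions within chr11:60200426-60206575. Its coding peaks numbered 0, 3 and 6 on the earlier days and 10 and 11 on the late days. In the siRNA lists it had 1 coding peak in siCtrl replicate 1 and 0 in the others. As for Fasn, the folds were modest (1.88 to 3.57 on day 5 and 2.06 to 4.35 on day 10), and no siRNA list held a member region of Srebf1.

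Card14, a scaffold protein known from NF-kappaB signalling in skin, had late peaks with high folds. It had 0 coding peaks on days -2 and 0, 1 on day 2, 9 on day 5 and 8 on day 10, and 0 in all 4 siRNA lists. Its 7 member regions lay within chr11:119322601-119333925, with folds from 38.59 to 154.37 on day 5 and from 26.82 to 110.13 on day 10. All 7 stood high in both lists, at percentiles from 93.1 to 99.2 on day 5 and from 88.0 to 98.3 on day 10. With lists of equal length, Card14 also had 7 regions.

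The other genes with 6 or more member regions had earlier coding peaks as well. Hspg2, the basement membrane proteoglycan perlecan, held 8 member regions. Its coding peaks numbered 1, 23, 17, 45 and 33 over the 5 stages, and 13 and 13 in siCtrl against 2 and 1 in siFTO. Its member folds were the lowest of the group, from 1.49 to 2.31 on day 5. Jak3, a cytokine receptor kinase, held 7 and had 0, 3, 3, 16 and 10 coding peaks over the stages, with folds from 5.06 to 15.59 on day 5. Its siRNA counts were 1 and 3 in siCtrl and 0 and 1 in siFTO.

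Fam13a, a gene in human loci for body fat distribution, also held 7, and its coding peaks numbered 1, 2, 3, 12 and 10 over the stages. Among the siRNA lists it had coding peaks in siFTO replicate 1 alone, with 3. Its region shown above by sequence had a fold of 10.75 on day 5, 4.6 on day 10 and 9.67 in siFTO replicate 1, the sole siRNA list that held it. The strongest Fam13a region, chr6:58974026-58974125, also overlaps the long noncoding RNA 8430415O14Rik. Ptov1, a gene first described as overexpressed in prostate tumours, held 7 and had 0, 1, 1, 8 and 8 coding peaks, then 5 and 5 in siCtrl and 3 and 2 in siFTO. Mylk, myosin light chain kinase, and Hdac5, a class II histone deacetylase, held 6 each, with 33 and 19 coding peaks on both late days against at most 24 and 11 earlier.

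**Figure D3:**
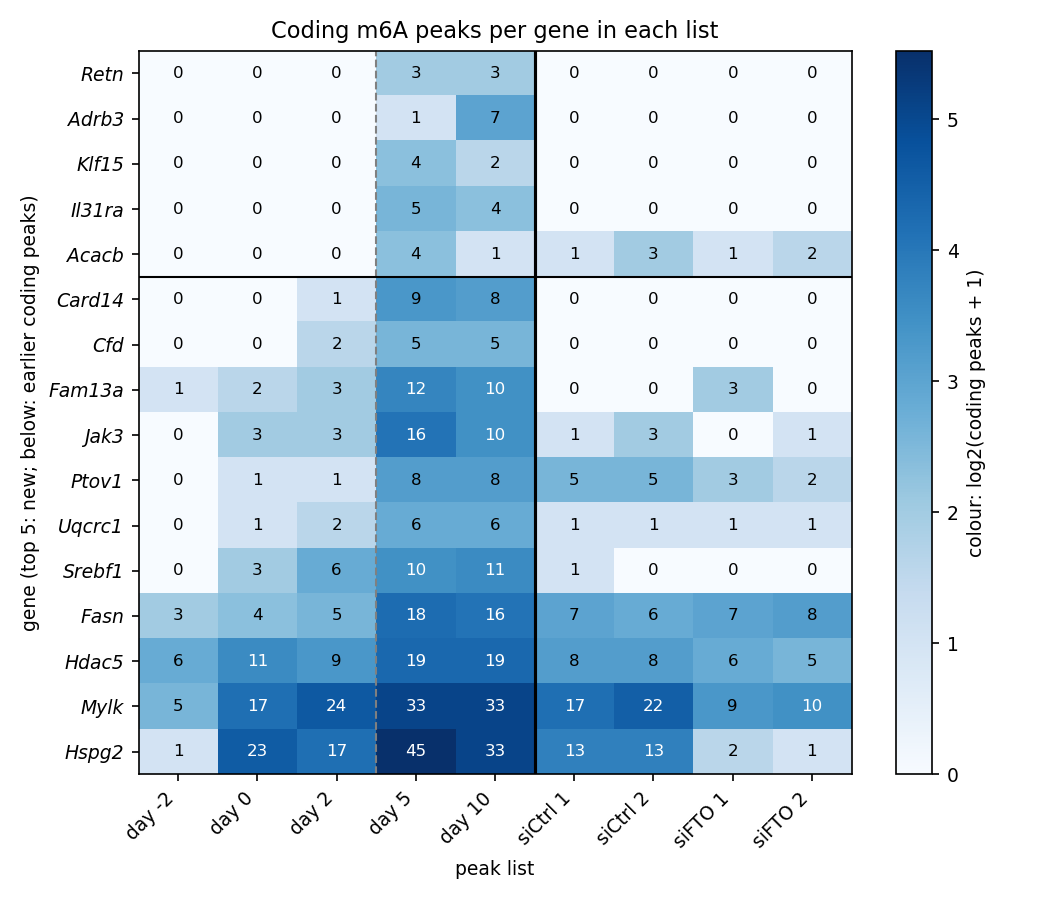
Number of coding m6A peaks (digits; colour on a log2 scale of the count plus 1) for 16 genes with member regions (rows) in the 9 peak lists (columns: 5 stages, then siCtrl and siFTO replicates). The 5 genes above the solid line have 0 coding peaks on days -2, 0 and 2, and Retn, Adrb3, Klf15, Il31ra, Card14 and Cfd have 0 in all 4 siRNA lists.

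The 164 new genes fell into kinds by their peaks outside the coding sequence. On days -2, 0 and 2, 92 of them had a peak in another transcript part and 72 had no peak at all. Of the 72, 34 also had no peak in the siRNA lists. Coding peaks of new genes were found in the siRNA lists for 45 and 55 of the 164 genes in siCtrl and for 60 and 44 in siFTO, so the groups overlapped. Counting all genes, 6721 and 6881 had a coding peak in siCtrl and 7543 and 6784 in siFTO. The siFTO replicate 1 list was thus the highest in both counts.

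Secreted and receptor genes of adipocytes were among the new genes. Retn encodes resistin, an adipokine of mouse adipocytes. It had 3 coding peaks on each late day and 0 in each of the other 7 lists. Its 3 member regions were chr8:3656001-3656150, chr8:3656901-3657000 and chr8:3657226-3657400 on the + strand. Their folds were 7.78, 19.35 and 17.65 on day 5 and 6.73, 10.63 and 27.42 on day 10. All 3 stood above the median fold of either list, and counting all transcript parts Retn had 5 peaks on day 5 and 6 on day 10, with 0 in the other 7 lists.

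Adrb3, the beta-3 adrenergic receptor through which catecholamines start lipolysis, had 1 coding peak on day 5 and 7 on day 10, and none elsewhere. Its member region chr8:27227958-27228319 (- strand) had a fold of 45.77 on day 5. On day 10 the highest fold in the region was 144.61, at percentile 98.9. Of the 10 peaks of Adrb3 on day 10, 7 were coding.

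Klf15, a Krüppel-like factor induced during adipogenesis, was the new gene among the adipogenic transcription factors. It had 4 coding peaks on day 5, 2 on day 10 and 0 in the other lists. Its 2 member regions, in chr6:90466476-90467025, had folds of 20.34 and 27.69 on day 5 and of 3.83 and 4.08 on day 10. They stood in the upper part of the day 5 list (percentiles 84.6 and 89.2) and in the lower part of the day 10 list (29.7 and 32.4), and 0 were kept with lists of equal length. Acacb, the acetyl-CoA carboxylase of the mitochondrial surface, had 4 coding peaks on day 5 and 1 on day 10. It had 1 and 3 in siCtrl and 1 and 2 in siFTO. It had 3 peaks of other parts on day 0 and on day 2, so the gene was new as a coding entry alone.

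The 10 new genes ranked highest by the worse of their percentiles on days 5 and 10 were Acot3, Hcls1, Adrb3, Sec1, Drp2, Rufy4, Sohlh1, Plcl1, Slc13a4 and Il31ra. Their best regions had folds from 24.9 to 81.67 on day 5 and from 26.82 to 144.61 on day 10, and 1 of the 10 was held by a siRNA list. Acot3, a peroxisomal acyl-CoA thioesterase, had a single peak on each late day, with folds of 61.03 and 97.68, and none in the other 7 lists. It has close relatives in the same gene cluster, and how the authors shared reads between them is not known here. Il31ra, a cytokine receptor subunit, held 4 member regions, with 5 coding peaks on day 5, 4 on day 10 and 0 in the other lists. It also had 1, 2 and 3 peaks of any part on days -2, 0 and 2. Hcls1, known from blood cells, and Sohlh1, known from germ cells, ranked here too, each with 1 coding peak on day 5.

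The 10 highest ranked genes with earlier coding peaks were Card14, Npnt, Wnt10b, Shroom3, Ccdc88b, Myh11, Parp16, Podn, Rpl3 and Rfx2. Their best regions had folds from 33.61 to 98.72 on day 5 and from 32.08 to 110.13 on day 10, and siRNA lists held 3 of the 10. The member regions of Shroom3 and Rpl3 did not meet the rule when peaks up to 100 bases apart were merged, and that of Podn did not when merging needed 50 shared bases. Wnt10b, a ligand known to hold preadipocytes back from differentiation, had 0, 1, 0, 2 and 2 coding peaks over the stages. Its member region chr15:98774251-98774400 had folds of 51.16 and 42.14 on the late days, and of 9.33 and 8.49 in siCtrl, and neither siFTO list held it. Of all stage coding regions, 11.4% were likewise in both siCtrl lists and no siFTO list. Wnt10b had 1 coding peak in each siFTO list, against 2 and 3 in siCtrl. Myh11, the smooth muscle myosin heavy chain, had 1, 0, 0, 6 and 12 coding peaks and none in the siRNA lists. Its 5 member regions had folds of up to 177.17, on day 10. Rpl3, a protein of the large ribosomal subunit, has processed copies in the genome that could share its reads.

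Many high folds of the members sat on evenly spaced values. The spacing was fitted for each late list to all its folds above 20, members included, so it was not known beforehand. On day 5, 74 of 116 member peaks with a fold above 20 lay within 0.006 of a whole multiple of 0.8975 (63.8%), against 22.0% of all coding peaks above 20. On day 10, 46 of 81 lay on multiples of 0.9577 (56.8%, against 19.5%). Of the 10 best new genes, 8 had such a fold on day 5, 9 on day 10 and 7 on both days. Of the 10 best genes with earlier coding peaks, 9, 7 and 7 did. Among the 9 genes with the most member regions 1 did on either day, which was Card14. What sets the spacing was not tested, so these folds serve to rank peaks and give no degree of methylation.

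Over the gene lists the share of coding regions that were late ran from 0 to 18.9%. Adipokine and insulin response genes held 10 member regions among 53 coding regions (18.9%), on 5 of 12 genes with a stage coding peak. Besides Retn and Adrb3, the genes were Cfd, Akt2 and Cav1. Cfd encodes adipsin, a serine protease secreted by fat cells, and had 0, 0, 2, 5 and 5 coding peaks over the stages and 0 in the siRNA lists. Its 3 regions had folds from 3.65 to 7.0 on day 5 and from 2.33 to 6.89 on day 10. Akt2, the kinase that relays the insulin signal to glucose uptake, held 2 regions with folds of at most 2.60. Of these, chr7:27636401-27636500 was held by all 4 siRNA lists, with folds of 1.72, 1.37, 1.62 and 1.57. Cav1, the coat protein of caveolae, held 1.

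Mature adipocyte lipid genes held 14 of 119 (11.8%), on 5 of 23 genes, and Fasn supplied 9 of the 14. The others were Acacb, Plin4, Acsl1 and Fabp4. Plin4, a lipid droplet coat protein, had 10, 15, 17, 21 and 22 coding peaks over the stages and 2 member regions, and all 4 siRNA lists held 1 of these (chr17:56102026-56102175). Fabp4, the fatty acid carrier of adipocytes, had 1, 0, 0, 3 and 2 coding peaks and 0 in the siRNA lists. Its region chr3:10205251-10205350 had folds of 2.09 and 1.53, near the bottom of the lists (percentiles 9.11 and 1.42). Acsl1, the acyl-CoA synthetase that activates fatty acids, had 0, 0, 7, 12 and 8 coding peaks, and 1 of its 12 coding regions was a member.

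Adipogenic transcription factors held 12 of 104 (11.5%), on 6 of 20 genes, and Srebf1 supplied 6 of these. Klf15 held 2, and Pparg, Rxra, Nr1h3 and Stat5a held 1 each. Pparg, the nuclear receptor at the centre of adipogenesis, had 1, 1, 1, 3 and 2 coding peaks over the stages. Its member region chr6:115473076-115473200 had folds of 1.94 and 1.34 on the late days, and all 4 siRNA lists held it, with 2.31 and 2.23 in siCtrl and 2.80 and 3.14 in siFTO. Its late membership thus rests on peaks at percentiles 6.94 and 0.482. Nr1h3, the oxysterol receptor LXR alpha, had folds of 10.22 and 6.70, the highest of the 4.

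Genes of mitochondrial fuel use held late regions at similar shares. Oxidative phosphorylation and fuel genes held 11 of 65 coding regions (16.9%), on 6 of 21 genes, among them Uqcrc1 and Sdha. Uqcrc1, a core subunit of complex III, had 0, 1, 2, 6 and 6 coding peaks over the stages and 1 in every siRNA list. Its 4 regions had folds from 1.32 to 1.64 on day 5 and from 1.44 to 2.65 on day 10, all below percentile 15. Branched-chain amino acid and acyl-CoA genes held 5 of 37 (13.5%), 1 each on Bcat2, Mccc2, Pccb, Acadsb and Hsd17b10. Bcat2, the mitochondrial transaminase that starts this breakdown, had 0, 0, 1, 3 and 2 coding peaks and 0 in the siRNA lists.

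Other lists held few. Preadipocyte and matrix genes held 4 of 405 (0.988%), all on Ltbp2, a binding protein of elastic fibres. Inhibitors of adipogenesis held 1 of 108, on Zfp521. Genes of m6A writing, erasing and reading held 0 of 62. Shares below the 4.48% of all coding regions were also found for SREBP and cholesterol genes (3 of 85), Wnt, BMP and TGF-beta genes (3 of 90), cell cycle genes (3 of 95), splicing factors (3 of 119) and early and stress genes (1 of 71). Counted by gene, member regions fell on 3 of 16 SREBP and cholesterol genes (18.8%), 3 of 21 Wnt, BMP and TGF-beta genes (14.3%) and 3 of 25 splicing factors (12.0%). Over all genes with a coding peak the share was 11.1%. With 3 member regions each, these lists are too small to be set apart from all coding regions or all genes. The listed markers of macrophages, endothelium and muscle, without Myh11 among them, had no coding region at any stage. The lists and the members were chosen with results of these data known, so the shares carry no test. With lists of equal length, 4 adipokine and insulin genes met the rule, but Akt2 and Cav1 did not, and the lipid, transcription factor, mitochondrial and branched-chain lists had 1 gene each. With peaks at or above the median fold of each list, fewer lipid (1), mitochondrial (1), branched-chain (2) and transcription factor genes (3) met the rule. So did fewer Wnt, BMP and TGF-beta (1), SREBP and cholesterol (0) and splicing genes (0). More preadipocyte and matrix (3), cell cycle (5) and m6A genes (1) met it. Adipokine and insulin genes stayed at 5 in number, but Akt2 and Cav1 did not meet it and other genes of the list did. These are counts of genes from lists of unlike size, so they give no order by share of regions. Without the day -2 list, 2 m6A genes met the rule.

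**Figure D4:**
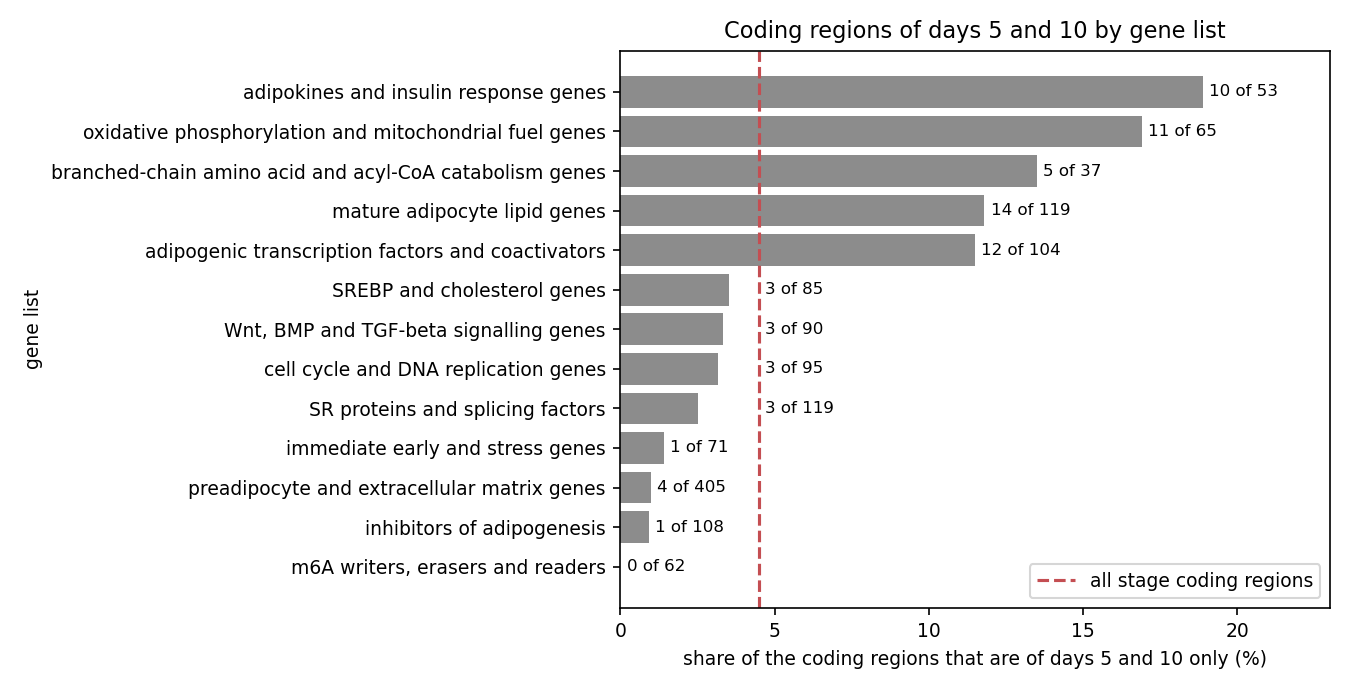
Share of the stage coding regions of each gene list (horizontal axis, percent) that were held on days 5 and 10 only, with the counts beside the bars and the share over all stage coding regions, 4.48%, as a dashed line. The adipokine and insulin, mitochondrial, branched-chain, lipid and transcription factor lists lie above the line, and the other 8 lists lie below it.

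The siRNA lists were not used to choose the regions. A coding peak of siCtrl overlapped 448 of the 1468 members in replicate 1 (30.5%, interval 28.2% to 32.9%) and 534 in replicate 2 (36.4%, 33.9% to 38.9%). In siFTO it was 355 (24.2%, 22.0% to 26.5%) and 287 (19.6%, 17.6% to 21.7%). Both siFTO shares were thus below both siCtrl shares, with means of 21.9% ± 3.28 against 33.4% ± 4.14 (SD, n = 2 lists each). The difference was -11.6 percentage points, and the two-sided exact permutation test over the 4 lists gave p = 0.333, the smallest that 2 against 2 allows. The difference shrank to -5.48 points with siRNA lists of equal length, to -3.1 with siRNA peaks at or above the median fold, and to -7.35 for members chosen without the day -2 list. Intervals cover counting error only.

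All stage coding regions differed in the same direction. They were held at 50.4% and 51.9% in siCtrl and at 45.8% and 42.5% in siFTO, a difference of -7.0 points (exact permutation p = 0.333). Divided by these, the members' shares were 0.606 and 0.701 in siCtrl and 0.528 and 0.460 in siFTO. The siFTO minus siCtrl difference in this ratio was -0.159 (exact permutation p = 0.333). Members chosen without the day -2 list turned this difference to 0.0437 (exact permutation p = 0.667), so its direction rested on that list.

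The shares were also taken for the member genes by kind. Members on genes with earlier coding peaks were held at 31.9% and 38.0% in siCtrl and at 23.4% and 19.4% in siFTO (difference -13.6 points, exact permutation p = 0.333). Members on new genes were held at 21.5% and 26.0% in siCtrl and at 29.0% and 20.5% in siFTO (difference 1.0 points, exact permutation p = 1). The new-gene shares of the groups overlapped, and the difference between the sets was not tested. Regions of days 2, 5 and 10 had shares close to those of the members, at 31.0% and 34.3% in siCtrl and 24.5% and 20.7% in siFTO. Regions of days 0, 5 and 10 had 55.6% and 58.1% against 26.7% and 22.8%, and regions of days -2, 5 and 10 had 71.3% and 75.5% against 79.4% and 78.3%. The siRNA shares thus differed with the earlier day that a region shared.

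Both siFTO lists but no siCtrl list had 51 of the members (3.47%), against 5.88% of all stage coding regions and 5.99% of those that are no members. Both siCtrl lists but no siFTO list had 184 (12.5%, against 11.4% of either), so the latter share was near the background. All 4 siRNA lists held 165 members and none held 806, which left 662 (45.1%) in at least 1 list, against 64.8% of all coding regions. The siFTO replicate 2 list was the shortest of the 4, with 19649 coding peaks against 22943 to 24544 in the others. Without it, 92 members were held by siFTO replicate 1 and no siCtrl list (6.27%, against 8.62% of all coding regions).

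**Figure D5:**
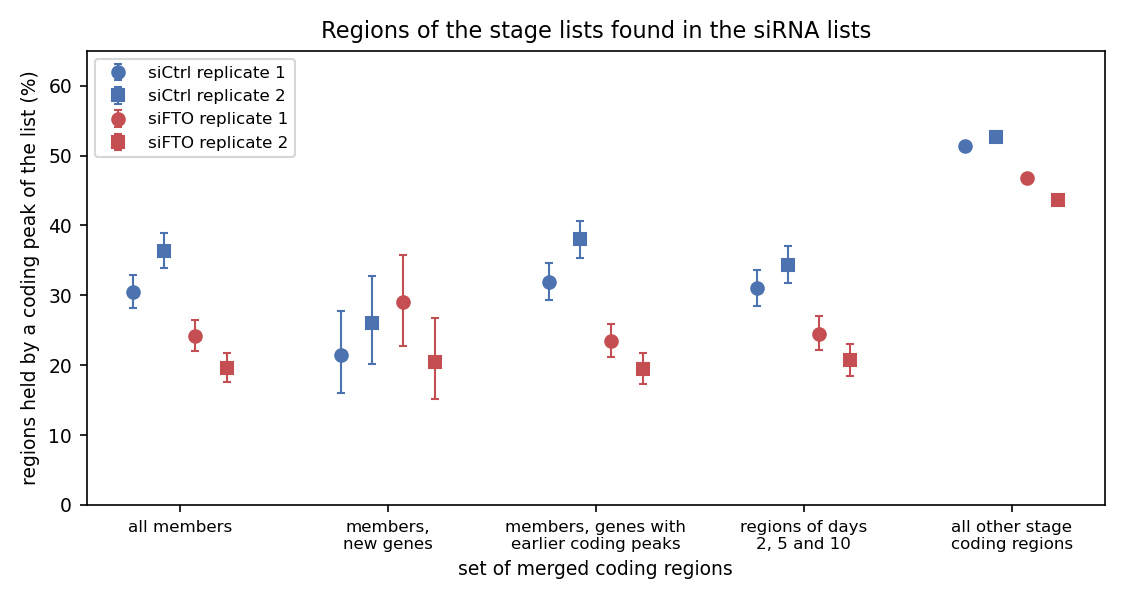
Share of regions overlapped by a coding peak (vertical axis, percent) in each of the 4 siRNA lists, for members and other sets of stage coding regions; bars are Clopper-Pearson 95% intervals. Among all members both siFTO points (24.2% and 19.6%) lie below both siCtrl points (30.5% and 36.4%), and for members on new genes the groups overlap.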

How the data were processed

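Libraries from fragmented poly(A) RNA were read from 1 end on an Illumina instrument, per the labels' protocols. The submitters' processing notes name TopHat2 2.0.9, bedtools and the build mm10. For the peak caller and its thresholds, nothing is given in the sources used here. The deposited lists, 1 per IP and input pair, give positions, gene, transcript part and, per the file headers, an enrichment by the authors, read here as a fold (ratio) of IP over input. Where several peaks of a day lay in a region, the highest fold stands for it. Read depth is unknown, so no count model was used. Lines with shifted cells (mitochondrial genome, at most 21 per list) were set apart.

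Regions were merged with Python 3.11.15, pandas 2.3.3 and numpy 2.4.6, and shares were compared with scipy 1.17.1. Merging and selection were tested on simulated data. Of 12634 gene IDs, 12492 had a symbol. Printed sequences come from RefSeq (GRCm38.p6), and coordinates are mm10, counted from 1. Replicate 1 of siCtrl and of siFTO is the sample whose label has no number. GGAC and GGACT were searched on the gene's strand only.

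The members and gene lists were chosen with earlier results of these data known. Named were the 10 best new genes and the 10 best genes with earlier coding peaks (by the worse fold percentile of days 5 and 10), the 8 genes with most members, with ties, up to 4 members per list, and all members of the lipid, adipokine and transcription factor lists. Genes without a proper symbol were left out. Hsd17b10 is named to complete its list. Some genes that the rule names are not reported here. Alternatives were other merging distances, stronger peaks, equal list lengths, other transcript parts, other overlaps and leaving out lists. The alternative without day -2, the ratio of shares and the test of evenly spaced folds were added after the data were seen.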

Additional observations from a re-analysis of the deposited data

How the results depend on the processing

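The number of members depended on which peaks were admitted. With peaks at or above each list's median fold, 967 regions met the rule, on 433 genes with earlier coding peaks and 245 new genes, which is more new genes than the 164. These regions overlapped 19.2% of the 1468 members, and 63 of the 164 new genes were shared. This setting also admits regions whose earlier peaks were weak. With lists of equal length, 579 regions met the rule, on 107 new genes and 325 genes with earlier coding peaks. They overlapped 405 of the members, and 75 of the 164 new genes were shared. When any transcript part counted as earlier, 1367 regions and 72 new genes were left. Without the day -2 list there were 1979 members and 322 new genes. Of these members, 105 were in both siFTO lists alone (5.31%, against 3.72% of all coding regions). In both siCtrl lists alone were 215 (10.9%, against 13.1%). Both shares thus lay on the other side of the share of all coding regions than with all 5 stage lists. The ratio of shares then reversed, to a difference of 0.0437. With siRNA peaks at or above the median fold, 20 members were in both siFTO lists alone (1.36%, against 5.14% of all coding regions). In both siCtrl lists alone were 59 (4.02%, against 7.6%), so this share was then below that of all coding regions.

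Leaving out each siRNA replicate in turn gave differences in share from -14.5 to -8.65 points. Members in siFTO alone then numbered 54 to 92 (3.68% to 6.27%, against 6.65% to 8.62% of all coding regions). Members in siCtrl alone numbered 197 to 249 (13.4% to 17.0%, against 13.2% to 14.6%). With the replicate number as a replicate block, the paired difference was -11.6 points (exact permutation p = 0.5), from -6.34 and -16.8 points within numbers 1 and 2. The labels do not say that a number pairs samples. The share difference was -5.48 points with equal siRNA lists, -3.1 with stronger siRNA peaks and -7.35 without day -2. No other siFTO minus siCtrl difference changed sign among the alternatives run. Set against all coding regions, the shares held by both siFTO or both siCtrl lists alone did change side in some alternatives, as given above. Read depth is unknown and each stage has 1 list, which limits every stage count.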
